A study of Mus musculus with 16 samples.

Results

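Collagen chain genes encode the polypeptides that wind around each other into collagen, the main protein of connective tissue. They were taken as every protein-coding gene of the deposited count table whose symbol reads Col, a type number, the letter a and a chain number. This gave 44 genes among the 54532 in the table, of which 11 were fibrillar chains, 8 basement membrane chains and 25 other chains. A filter on low counts kept 37 of the 44 for testing.

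The samples were 16 poly-A RNA libraries from mouse colorectal tumours grown from MC38, a colon carcinoma line of C57BL/6 mice, placed in the colon wall of mice of that strain. The tumour cells were of an MC38 line labelled MSI, for microsatellite instability, or of one labelled CIN, for instability of chromosomes. All mice received dendritic cells grown from bone marrow, which had been exposed with a Lipofectamine reagent for 30 minutes to 2 µg of DNA, by injection into the peritoneum on days 1, 6 and 12, and tumours were taken on day 15. The DNA came from MSI or from CIN cells and was given as free cytosolic DNA or as micronuclei, which are small bodies outside the nucleus that hold chromosome pieces. The groups are named by tumour, DNA source and DNA form: MSI tumour MSI free, MSI tumour MSI micronuclei, MSI tumour CIN free, MSI tumour CIN micronuclei, CIN tumour MSI free, CIN tumour MSI micronuclei, CIN tumour CIN free and CIN tumour CIN micronuclei. Each of the 8 groups had 2 libraries, numbered 1 and 2. By the series text, RNA of 3 biological replicates was put together in even shares, so a library may stand for a mix of animals. Tumours of mice that received dendritic cells without DNA were not analysed here. Each kind of instability was represented by 1 line, so instability and line cannot be told apart.

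Every collagen chain carries stretches in which glycine comes back after every pair of other amino acids, since only glycine is small enough to sit inside the triple helix. Fibrillar collagens (types I, III and V among them) assemble into the banded fibres that give tissue its strength. Basement membrane collagens, with type IV as the main one, form sheets under epithelium and around vessels and muscle fibres. Other types link, coat or anchor these structures, and type VI forms beaded filaments between cells and fibrils. Fibroblasts are the usual main source of types I, III, V and VI in a tumour, and the RNA of a bulk sample cannot tell fewer cells of a type from less RNA per cell.

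The repeat is visible in the coding sequence. The following 90 bases, from the GENCODE M21 transcripts (GRCm38), start where the longest unbroken run of glycine triplets begins in 6 chains that the results turn on, with the glycine codon that opens each triplet in capitals.
Col1a1, codons 168 to 197: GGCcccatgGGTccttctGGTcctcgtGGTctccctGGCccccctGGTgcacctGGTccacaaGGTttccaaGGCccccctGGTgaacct
Col1a2, codons 97 to 126: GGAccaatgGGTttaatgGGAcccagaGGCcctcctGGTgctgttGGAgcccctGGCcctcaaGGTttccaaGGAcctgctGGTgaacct
Col3a1, codons 164 to 193: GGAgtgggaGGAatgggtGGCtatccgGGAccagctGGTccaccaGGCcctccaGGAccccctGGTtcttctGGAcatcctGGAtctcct
Col4a1, codons 43 to 72: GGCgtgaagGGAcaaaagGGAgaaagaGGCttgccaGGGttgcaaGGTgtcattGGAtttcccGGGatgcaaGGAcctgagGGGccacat
Col6a3, codons 2165 to 2194: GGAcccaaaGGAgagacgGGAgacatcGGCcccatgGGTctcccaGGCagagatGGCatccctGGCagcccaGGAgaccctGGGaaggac
Col18a1, codons 953 to 982: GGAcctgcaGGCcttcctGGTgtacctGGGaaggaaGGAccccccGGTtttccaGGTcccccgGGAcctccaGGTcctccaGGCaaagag

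The run that begins here is long in fibrillar chains and short in the others. It went on for 338 triplets in Col1a1, 339 in Col1a2 and 344 in Col3a1, against 40 in Col4a1, 45 in Col6a3 and 30 in Col18a1. Over all 11 fibrillar chains the longest run had a median of 338 triplets (216 to 344), over the 8 basement membrane chains 41 (30 to 66) and over the 25 other chains 52 (23 to 113). Basement membrane chains instead held many runs of at least 10 triplets (median 17.5 a chain, against 2 in fibrillar and 5 in other chains). Coding exons whose length is a multiple of 9 bases, the size of 1 triplet, made up a median 83.3% of the exons of fibrillar chains, 43.1% of basement membrane chains and 54.3% of other chains. These features belong to the reference gene models and describe what the classes are, not how the genes were expressed.

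Total counts ran from 11561955 to 17937501 per library, and the collagen chains together took 0.300 to 0.761% of all counts in MSI tumours and 0.661 to 0.865% in CIN tumours. Some libraries stood apart from the rest. In MSI tumours the summed level of 15 colon epithelium markers was 7740 to 12398 CPM (counts scaled to library size by the TMM method) in the second libraries and 572 to 3891 CPM in the first. The 12 smooth muscle markers were likewise at 2195 to 5527 CPM in the second and 484 to 1349 CPM in the first. Skeletal muscle markers summed to 136 to 697 CPM in 5 libraries (MSI tumour CIN micronuclei 1, both CIN tumour MSI micronuclei libraries, CIN tumour MSI free 2 and CIN tumour CIN free 2) and to 5.31 to 36.3 CPM in the other 11. None of the markers in these lists was at 0 in all libraries.

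Between tumour types, every collagen chain that passed the test was lower in MSI tumours. By edgeR's quasi-likelihood test, 7 of the 37 tested chains passed a Benjamini-Hochberg adjusted p of 0.05, all 7 lower in MSI tumours and 0 higher. Over all 18777 genes tested, 5.8% passed, 3.48% lower and 2.32% higher. The 7 chains were the type I chain Col1a1, the type V chains Col5a1 and Col5a2, the minor fibrillar chain Col27a1, the type VI chains Col6a2 and Col6a3 and the basement membrane chain Col18a1. Without adjustment 16 chains were under 0.05, against a background of 22.1%. Among them Col4a1, Col4a5 and Col15a1 were higher in MSI tumours (log2 fold change 0.36, 0.42 and 0.43) and the rest lower. The median log2 fold change over the 37 chains was -0.40, beside 0.06 over all genes tested, and 25 chains had a negative and 12 a positive value. In 5 chains (Col1a1, Col5a1, Col27a1, Col18a1 and Col6a3) every MSI library lay below every CIN library, which held for 1.88% of all genes, and 0 chains had the opposite order (1.23% of all genes). The p-values reflect only how far these libraries scatter, and that scatter may be technical.

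**Figure D1:**
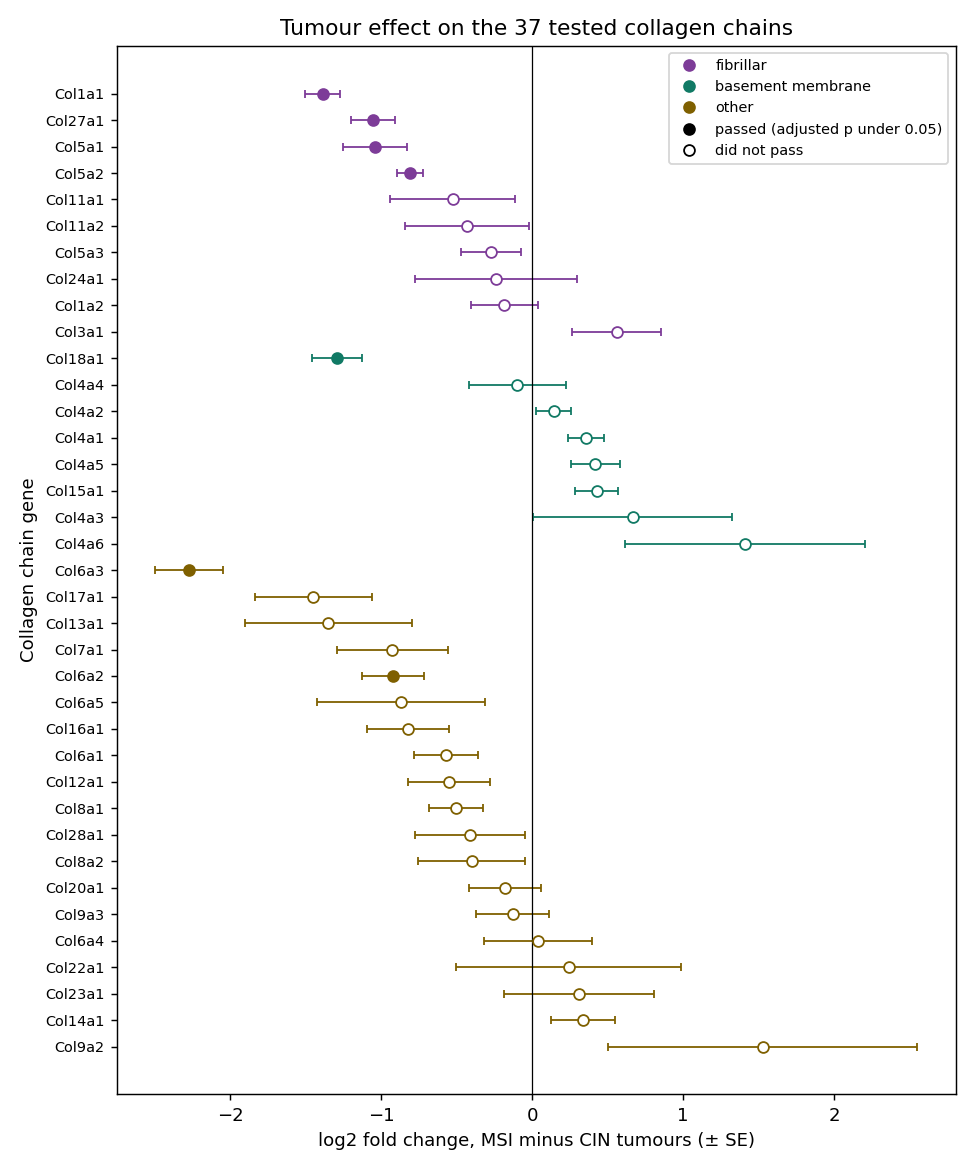
Tumour effect on each of the 37 tested chains, as the log2 fold change of MSI minus CIN tumours (x axis, bars are the standard error), sorted within the fibrillar, basement membrane and other classes (y axis). Filled points are the 7 chains that passed, from -2.27 for Col6a3 to -0.81 for Col5a2, and all of them lie left of 0.

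Col1a1, Col5a2, Col27a1, Col6a3 and Col18a1 passed under each alternative, including the removal of any single library. Leaving out MSI tumour CIN micronuclei 1 added Col7a1 and Col8a1 to the chains that passed, and leaving out MSI tumour CIN free 1 added Col6a1 and Col16a1, all lower in MSI tumours. Without the 4 second MSI libraries, an alternative chosen after seeing the data, 11 chains passed, 9 lower and 2 higher. In a model of main effects without the 5 libraries rich in skeletal muscle markers, the same 5 chains passed. Other chains passed as lower in MSI tumours in a few of the 10 alternatives other than leaving out single libraries. Col1a2 and Col5a3 did so in 1, Col6a1, Col6a5, Col7a1 and Col13a1 in 2 and Col8a1 in 3.

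The fibrillar class held 4 of the 7. Of its 10 tested members 4 fell, 0 rose and 6 did not pass, with a median log2 fold change of -0.48.

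Col1a1 (ENSMUSG00000001506, chr11:94936224-94953042, GRCm38, plus strand) encodes the α1 chain of type I collagen, the most abundant protein of skin, tendon and bone. Its level over the 8 MSI libraries was 216, 359.5 and 501 CPM (lowest, median, highest) and over the 8 CIN libraries 681, 915 and 1197 CPM. The highest MSI library, MSI tumour MSI micronuclei 2, was still below the lowest CIN library, CIN tumour MSI micronuclei 1. Group means were 326 (MSI free DNA), 435 (MSI micronuclei), 373 (CIN free DNA) and 279 CPM (CIN micronuclei) in MSI tumours, and 999.7, 718, 857 and 1118 CPM in CIN tumours in the same order. Col1a1 was 2.61-fold lower in MSI tumours (353 ± 81.3 against 923 ± 169 CPM, SD of 8 libraries per tumour type, log2 difference -1.39, SE 0.12, edgeR adjusted p 2.59e-04 after Benjamini-Hochberg).

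Col1a2 (chr6:4504814-4541544, plus strand) encodes the α2 chain, which joins the α1 chain in the usual type I molecule. It did not pass: 125, 242 and 370 CPM in MSI tumours and 107, 256 and 516 CPM in CIN tumours (lowest, median, highest, n = 8 each). The MSI range lay inside the CIN range, and both CIN tumour CIN micronuclei libraries (509.7 and 516 CPM) were above all others. The log2 fold change was -0.18 ± 0.22 (SE), an interval of 2 standard errors of -0.63 to 0.26 (edgeR with Benjamini-Hochberg adjusted p = 0.624). The ratio of the pair is given further on.

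Col3a1 (chr1:45311538-45349706, plus strand), the single chain of type III collagen, which forms thin fibrils in gut wall, vessels and early repair tissue, had the highest FPKM of all chains in MSI tumours, as given further on. Its level was 824, 2363 and 3940.3 CPM in MSI tumours, against 976, 1583 and 2092 CPM in CIN tumours (lowest, median, highest). Over all libraries it did not pass (log2 difference 0.56, SE 0.30, edgeR adjusted p 0.294 after Benjamini-Hochberg). The first MSI libraries held 2335 to 3940.3 CPM, all above the first CIN libraries at 989 to 1664 CPM. The second MSI libraries, rich in colon and smooth muscle markers, held 824 to 2715 CPM and overlapped the second CIN libraries at 976 to 2092 CPM. Without those 4 MSI libraries Col3a1 passed as higher in MSI tumours (log2 fold change 0.92, edgeR with Benjamini-Hochberg adjusted p = 0.00353, each MSI group then being 1 library assumed to vary like the others). The part of colon and muscle RNA in this result was not tested, and how many of all genes were split by library number in this way was not counted.

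**Figure D2:**
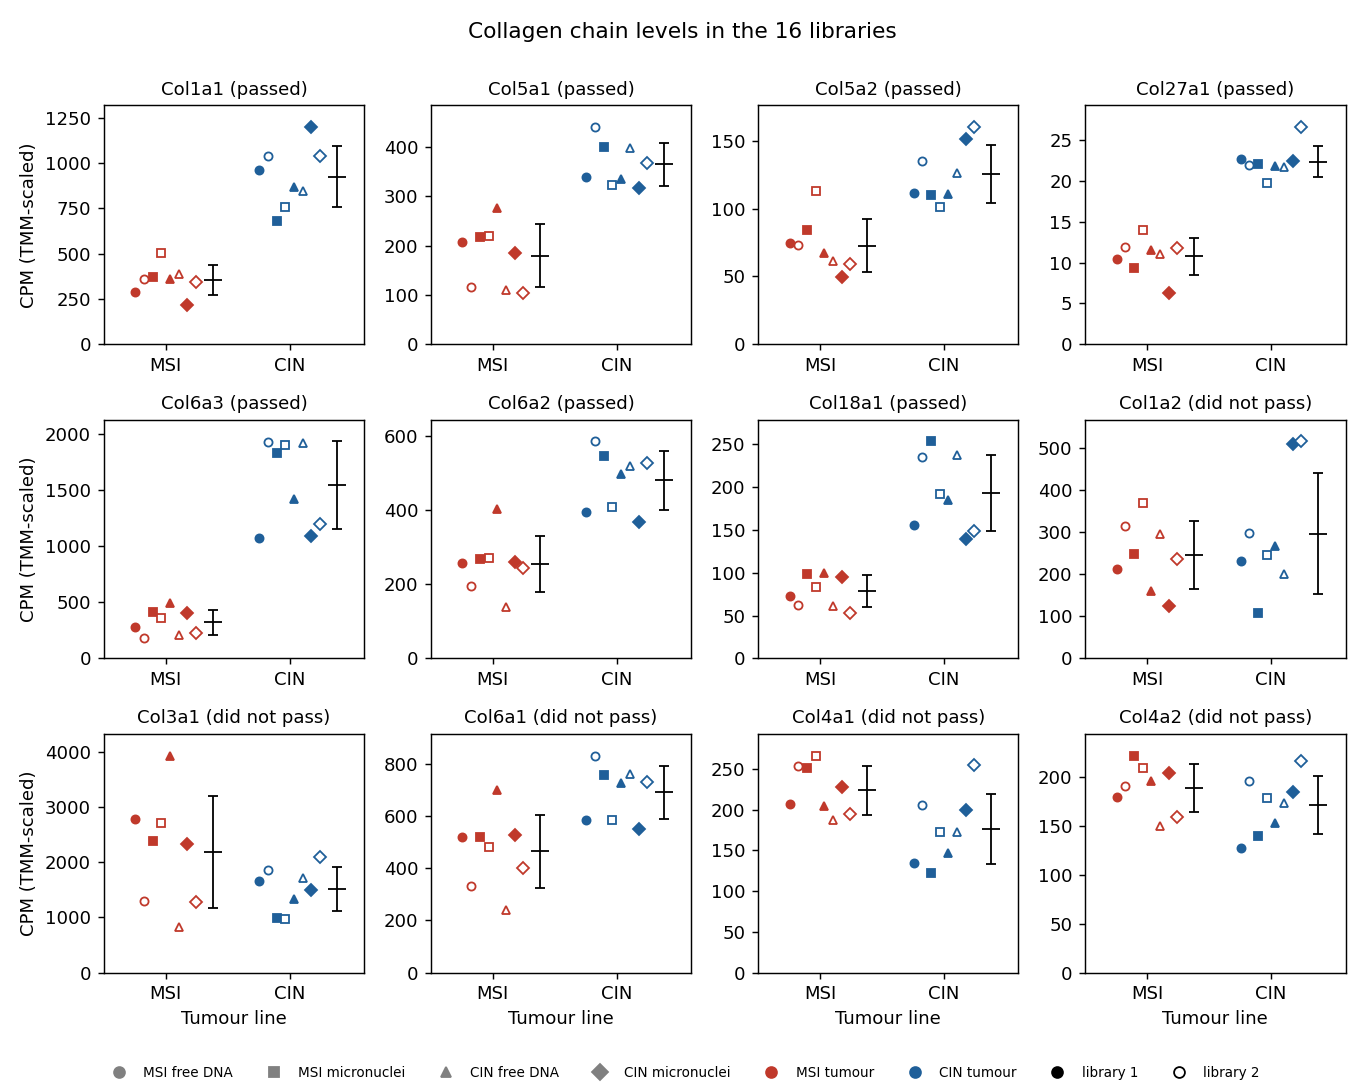
Level of 12 chains in each library (y axis, CPM scaled by TMM) by tumour line (x axis). Symbols give the DNA, filled points library 1 and open points library 2, and the bar the mean ± SD of 8 libraries. For Col1a1 the MSI points end at 501 and the CIN points begin at 681, while for Col3a1 the MSI points spread from 824 to 3940.3 on both sides of the CIN points.

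Type V collagen sits inside type I fibrils and limits their width, and both of its common chains fell. Col5a1 (chr2:27886425-28039514, plus strand) was at 104, 197 and 277 CPM in MSI tumours and at 318, 353 and 440.2 CPM in CIN tumours, without overlap. Its group means were 162 (MSI free DNA), 218 (MSI micronuclei), 193 (CIN free DNA) and 145 CPM (CIN micronuclei) in MSI tumours and 389.6, 361, 366 and 342 CPM in CIN tumours in the same order. The change was 2.06-fold (log2 difference -1.04, SE 0.21, edgeR adjusted p 0.0186 after Benjamini-Hochberg). This call was lost in 4 of the 16 fits that left out 1 library (both MSI tumour MSI micronuclei libraries, CIN tumour MSI free 2 and CIN tumour CIN free 2), with an adjusted p of at most 0.0628, and without the muscle-rich libraries (adjusted p = 0.217 in the main effects model). The log2 fold change was -1.24 to -0.90 over the 16 fits and -0.99 without the muscle-rich libraries. Col5a1 overlaps the opposite-strand transcript Gm13372, which had 728 counts against 63972 for Col5a1.

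Col5a2 (chr1:45374321-45503282, minus strand) was at 49.6, 70.3 and 113 CPM in MSI tumours and at 101, 119 and 160.1 CPM in CIN tumours. MSI tumour MSI micronuclei 2 (113 CPM) was the one MSI library to reach into the CIN range. Group means were 73.8 (MSI free DNA), 98.5 (MSI micronuclei), 64.3 (CIN free DNA) and 54.3 CPM (CIN micronuclei) in MSI tumours and 123, 106, 118 and 156 CPM in CIN tumours in the same order. Col5a2 was 1.75-fold lower in MSI tumours (log2 difference -0.81, SE 0.09, edgeR adjusted p 6.73e-04 after Benjamini-Hochberg). Col5a2 lies tail to tail with Col3a1, 24614 bases apart on chromosome 1, and the neighbours went opposite ways in sign, with a positive value for Col3a1 that did not pass. The third type V chain, Col5a3, was at 76.1 ± 26.6 CPM in MSI tumours, against 91.2 ± 20.1 CPM in CIN tumours (SD, n = 8 each) and did not pass (log2 difference -0.27, SE 0.20).

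Col27a1 (chr4:63214004-63334991, plus strand) encodes a fibrillar chain known mainly from cartilage, with a shortened helix whose longest run has 217 triplets. Its level was low and tight: 6.22, 11.3 and 13.9 CPM in MSI tumours and 19.7, 22.0 and 26.6 CPM in CIN tumours (lowest, median, highest), without overlap. Group means were 11.2 (MSI free DNA), 11.7 (MSI micronuclei), 11.3 (CIN free DNA) and 9.02 CPM (CIN micronuclei) in MSI tumours and 22.3, 20.9, 21.7 and 24.5 CPM in CIN tumours in the same order. The 2.08-fold difference passed (log2 difference -1.06, SE 0.15, edgeR adjusted p 0.00264 after Benjamini-Hochberg).

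The remaining fibrillar chains were low. Col11a2, a cartilage chain, was at 10.7 ± 6.20 CPM in MSI tumours, against 14.6 ± 5.20 CPM in CIN tumours. Col11a1 and Col24a1 had means between 1.48 and 2.48 CPM. None of these 3 passed. Col2a1, the chain of cartilage type II collagen, had 66 counts over all 16 libraries and was not tested.

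The other class held the largest difference among the 37 chains, in type VI collagen. Of its 19 tested members 2 fell, 0 rose and 17 did not pass, with a median log2 fold change of -0.51. Both that fell belong to the beaded filament chains, of which 5 were tested.

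Col6a3 (ENSMUSG00000048126, chr1:90765923-90843971, minus strand) encodes the long α3 chain, whose tail releases the fragment endotrophin. Its level was 181, 324 and 497 CPM in MSI tumours and 1077, 1628 and 1933 CPM in CIN tumours (lowest, median, highest), so the groups were far apart. Group means were 232 (MSI free DNA), 387 (MSI micronuclei), 351 (CIN free DNA) and 312 CPM (CIN micronuclei) in MSI tumours and 1505, 1871, 1671 and 1144 CPM in CIN tumours in the same order. Col6a3 was 4.83-fold lower in MSI tumours (321 ± 114 against 1548 ± 391 CPM, SD of 8 libraries per tumour type, log2 difference -2.27, SE 0.22, edgeR adjusted p 4.99e-04 after Benjamini-Hochberg). Between tumours given the same DNA, the ratio of CIN to MSI group means was 3.66 to 6.48. Without the 4 colon-rich MSI libraries the log2 fold change was -1.96, and without the muscle-rich libraries -1.94.

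The partner chains differed less. Col6a2 (chr10:76595762-76623630, minus strand) was at 137, 259 and 402 CPM in MSI tumours and 368, 508 and 586 CPM in CIN tumours, with MSI tumour CIN free 1 (402 CPM) inside the CIN range. Group means were 227 (MSI free DNA), 269 (MSI micronuclei), 269.7 (CIN free DNA) and 252 CPM (CIN micronuclei) in MSI tumours and 491, 477, 508 and 447 CPM in CIN tumours in the same order. Its log2 fold change was -0.92 ± 0.20 (SE, edgeR with Benjamini-Hochberg adjusted p = 0.0265). This was the least firm of the 7 calls: it was lost in 9 of the 16 fits that left out 1 library (adjusted p up to 0.0841) and without the muscle-rich libraries (adjusted p = 0.257). Its log2 fold change was -1.16 to -0.77 over the 16 fits and -0.79 without the muscle-rich libraries. The 9 fits in which the call was lost were those without both MSI tumour MSI micronuclei libraries in turn, MSI tumour CIN micronuclei 2, MSI tumour MSI free 2, CIN tumour MSI micronuclei 1, CIN tumour CIN micronuclei 2, CIN tumour MSI free 2 and each of the CIN tumour CIN free libraries.

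Col6a1 (chr10:76708792-76726168, minus strand), which lies in tandem with Col6a2, was at 240.1, 499.9 and 701 CPM in MSI tumours and 549.9, 728 and 833 CPM in CIN tumours. The ranges overlapped and the difference did not pass (log2 difference -0.57, SE 0.21, edgeR adjusted p 0.140 after Benjamini-Hochberg). The alternative α3-like chains were scarce: Col6a4 was at 4.99 ± 1.34 CPM in MSI tumours, against 5.16 ± 3.52 CPM in CIN tumours, Col6a5 at 1.04 ± 0.572 and 2.06 ± 1.45 CPM (SD, n = 8 each), and Col6a6 had 16 counts in all. Neither Col6a4 nor Col6a5 passed (log2 differences 0.04, SE 0.36, and -0.87, SE 0.55), and the sign for Col6a4 depended on the model. Col6a5 passed as lower in 2 of 10 alternatives other than leaving out single libraries.

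Of the 8 basement membrane chains 1 fell and 7 did not pass, and the class median was positive (log2 fold change 0.39). Col18a1 (chr10:77052178-77166548, minus strand) encodes a heparan sulfate carrying collagen whose end is cut off as endostatin. Its level was 53.0, 78.3 and 99.8 CPM in MSI tumours and 139, 188 and 253 CPM in CIN tumours (lowest, median, highest), without overlap. Group means were 67.6 (MSI free DNA), 90.7 (MSI micronuclei), 80.7 (CIN free DNA) and 74.2 CPM (CIN micronuclei) in MSI tumours and 196, 223, 211 and 144 CPM in CIN tumours in the same order. It was 2.45-fold lower in MSI tumours (log2 difference -1.29, SE 0.16, edgeR adjusted p 0.00164 after Benjamini-Hochberg). Col18a1 overlaps Slc19a1 on the opposite strand, and as no source used here gives a strand setting, reads of the shared stretch cannot be assigned with certainty. Slc19a1 had 9085 counts over all libraries against 31848 for Col18a1.

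The type IV chains, the network formers of the basement membrane, come as 3 gene pairs that start next to each other. Col4a1 and Col4a2 overlap by 22 bases at their starts, shown here because both genes begin in it, on the plus strand of GRCm38.p6 at chr8:11312805-11312826.
Col4a1 and Col4a2 shared start: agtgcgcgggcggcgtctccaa
Col4a3 and Col4a4 start 71 bases apart and Col4a5 and Col4a6 1308 bases apart.

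Col4a1, the α1 chain found in nearly all basement membranes, was at 187, 217 and 266 CPM in MSI tumours and 122, 172 and 255 CPM in CIN tumours. Col4a2, its partner, was at 149.9, 193 and 222 CPM in MSI tumours, against 128, 176 and 216 CPM in CIN tumours. Both pairs of ranges overlapped. Split by library number, the first MSI libraries (204 to 251 CPM) lay above the first CIN libraries (122 to 199 CPM) for Col4a1. The second libraries overlapped (187 to 266 against 172 to 255 CPM). How many of all genes had such a split was not counted. Neither chain passed, with log2 fold changes of 0.36 ± 0.12 and 0.14 ± 0.12 (SE, edgeR with Benjamini-Hochberg adjusted p = 0.109 and 0.466). Col4a5 (17.4 ± 4.15 against 13.2 ± 2.99 CPM) and Col15a1 (41.0 ± 8.47 against 30.5 ± 7.95 CPM), a relative of Col18a1, also had positive values that did not pass (log2 fold change 0.42 ± 0.16 and 0.43 ± 0.14 SE). Col4a5 passed as higher in MSI tumours without the 4 colon-rich MSI libraries (log2 fold change 0.56, edgeR with Benjamini-Hochberg adjusted p = 0.0483) and with a smooth muscle covariate. With colon epithelium and skeletal muscle covariates Col4a1, Col4a5 and Col15a1 passed as higher.

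Of 12 endothelial markers 7 rose in MSI tumours by the same test and 0 fell, against 2.32% of all genes higher and 3.48% lower. Vwf had a negative value that did not pass (log2 fold change -0.57). The sum of the 12 markers was 134 to 205 CPM in MSI tumours, against 87.2 to 170 CPM in CIN libraries. Their part in the type IV levels was not tested.

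Col4a3 and Col4a4, chains of kidney, lung and ear membranes, stayed at or under 1.40 CPM in every library and did not pass (log2 differences 0.67, SE 0.66, and -0.10, SE 0.32). The value of Col4a3 turned to -0.72 without the second MSI libraries. Col4a6, a chain known from smooth muscle and some epithelia, ran from 0.129 to 7.58 CPM in MSI tumours and from 0 to 3.89 CPM in CIN tumours. Its MSI values split by library: 0.129 to 2.14 CPM in the first libraries and 3.56 to 7.58 CPM in the second, where smooth muscle markers were also high. The log2 fold change of 1.41 ± 0.79 (SE) did not pass and turned to -1.07 without the second MSI libraries.

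Most other chains did not pass. Col17a1, a transmembrane chain of the hemidesmosome, was at 0.871 ± 0.491 CPM in MSI tumours, against 2.26 ± 0.515 CPM in CIN tumours (SD, n = 8 each, log2 difference -1.45, SE 0.39, edgeR adjusted p 0.0556 after Benjamini-Hochberg). The value lay just over the threshold, and the chain passed in 9 of 10 alternatives other than leaving out single libraries, and without MSI tumour MSI micronuclei 2. Col13a1, another transmembrane chain, had -1.35 ± 0.55 (SE) at means of 0.449 and 1.08 CPM. Col7a1, which forms the anchoring fibrils under epithelium, was at 69.8 ± 34.7 CPM in MSI tumours, against 133 ± 28.7 CPM in CIN tumours and did not pass (adjusted p = 0.174 by edgeR with Benjamini-Hochberg adjustment). Its second MSI libraries were at 15.6 to 66.7 CPM and its first at 90.8 to 109.8 CPM.

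Among the fibril-associated chains, which coat fibrils without forming them, 0 of 7 tested passed. Col12a1 was at 19.5 ± 8.47 against 30.8 ± 17.0 CPM, Col14a1 at 11.1 ± 1.87 against 9.0 ± 3.42 CPM and Col16a1 at 205 ± 90.4 against 363 ± 59.7 CPM (MSI against CIN, SD, n = 8 each). Their log2 fold changes were -0.55 ± 0.27, 0.34 ± 0.21 and -0.82 ± 0.27 (SE). Col16a1 passed as lower in MSI tumours in 5 of 10 alternatives other than leaving out single libraries. Its log2 fold change over the 10 was -0.92 to -0.40. Without the 4 colon-rich MSI libraries Col12a1 passed (log2 fold change -1.16, edgeR with Benjamini-Hochberg adjusted p = 0.0257). Col9a2, a cartilage chain, had the largest positive value, 1.53 ± 1.02 (SE), at means of 0.844 and 0.402 CPM, which turned to -2.73 without the second MSI libraries. The short-chain collagen Col8a1, known from vessels, was at 83.5 ± 21.3 against 119 ± 17.5 CPM and did not pass (log2 difference -0.51, SE 0.18). The chains not yet named, Col8a2, Col9a3, Col20a1, Col22a1, Col23a1 and Col28a1, had means of 0.380 to 4.59 CPM, and none passed. Col20a1 shares its strand with the overlapping transcript 9230112E08Rik, so its 798 counts are uncertain.

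The 7 chains left untested had few counts. Col2a1 had 66, Col25a1 58, Col10a1 46, Col6a6 16, Col26a1 13, Col9a1 11 and Col19a1 3 counts over all libraries. Col19a1 was at 0 in 15 libraries, and no chain was at 0 in all 16. The 46 counts of Col10a1 lie inside Nt5dc1 (4723 counts, opposite strand), so they cannot be assigned with certainty.

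**Figure D3:**
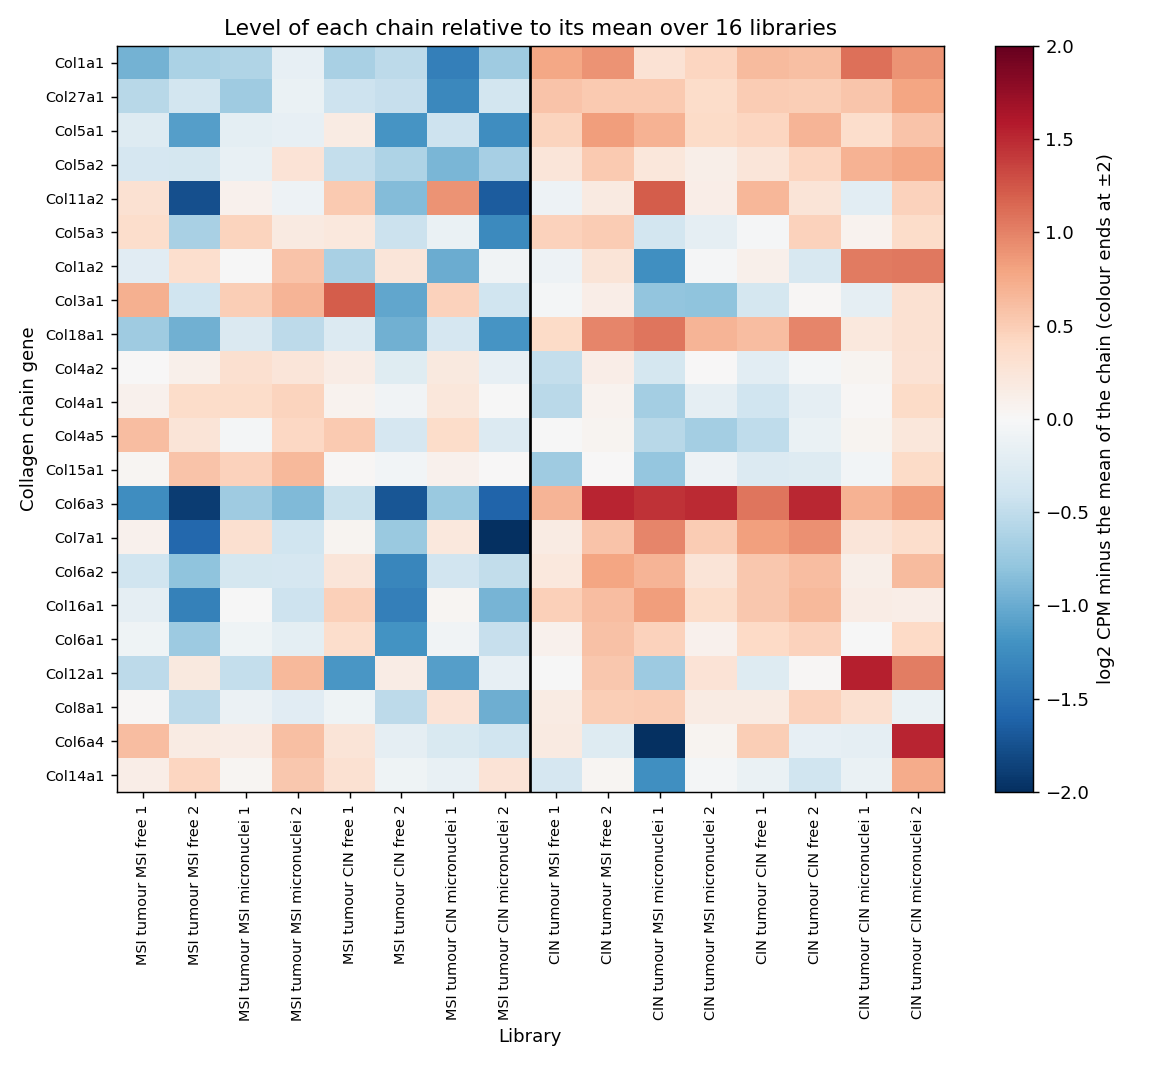
Level of the 22 tested chains with a mean of at least 5 CPM (rows, in class order) in each library (columns, MSI tumours left of the line), as log2 CPM minus the mean of the chain over 16 libraries. Col1a1, Col27a1, Col18a1 and Col6a3 are blue in all MSI and red in all CIN libraries, while the type IV rows are pale.

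Levels of different genes were compared per length, as deposited FPKM (counts scaled to gene length and library size). The deposited lengths can differ much from the coding length, as for Col6a1 (4380 bases, 3075 coding) and Col6a2 (8326 bases, 3102 coding). The order of the chains thus depends in part on these lengths. In CIN tumours 4 chains stood close together at the top: Col6a1 at 154 ± 21.2, Col3a1 at 151 ± 41.1, Col1a1 at 138 ± 27.5 and Col6a3 at 126 ± 29.6 FPKM (SD, n = 8), all within 1 SD of their neighbours. In MSI tumours Col3a1 led at 221 ± 94.0 FPKM, followed by Col6a1 at 106 ± 27.2 and Col1a1 at 54.5 ± 13.7 FPKM. Below these came Col6a2 (30.4 ± 7.78), Col4a1 (30.2 ± 4.27), Col16a1 (30.0 ± 11.8), Col4a2 (28.6 ± 3.10) and Col6a3 (26.6 ± 8.22 FPKM), which did not differ beyond their spread. Col6a3 thus ranked 4 in CIN and 8 in MSI tumours. Col4a1 and Col4a2 ranked 5 and 7 in MSI tumours and 11 and 9 in CIN tumours, and the other type IV chains ranked 17 to 37 and 19 to 39.

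**Figure D4:**
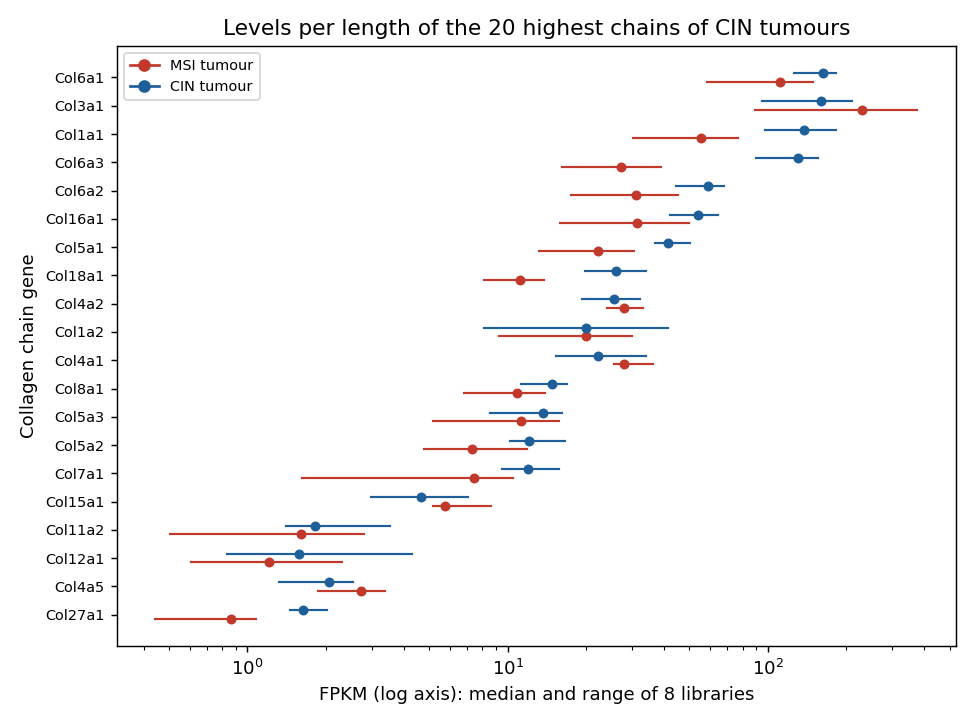
Median (point) and range (line) over 8 libraries of the FPKM (x axis, log scale) of the 20 chains highest in CIN tumours (y axis), for MSI and CIN tumours. The lines of Col6a3, Col1a1 and Col18a1 do not overlap between tumour types, while those of Col4a1, Col4a2 and Col1a2 do.

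Shares of all collagen FPKM are descriptions without a test, as each library's shares add to a whole. Their size, too, depends on the deposited gene lengths. Fibrillar chains made up 52.7 ± 3.55% in MSI tumours, against 43.0 ± 6.47% (SD, n = 8 each) in CIN tumours. Col3a1 alone made up 33.4 ± 7.08% in MSI tumours, against 16.8 ± 3.47% in CIN tumours, with the lowest MSI library (21.8%) just above the highest CIN library (21.3%). The type VI chains held 25.7 ± 2.43% and 37.9 ± 5.29%, without overlap (23.0 to 29.9% in MSI and 30.1 to 45.4% in CIN tumours). Basement membrane chains held 13.1 ± 2.97% and 9.21 ± 0.749%.

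Ratios between chains of 1 molecule, or of 1 fibril, were formed within each library from FPKM. Their size depends on the deposited gene lengths: 6563 bases for Col1a1, 12426 for Col1a2, 4380 for Col6a1 and 8326 for Col6a2. The coding sequences had 4359, 4116, 3075 and 3102 bases in the same order. The ratios therefore do not give the make-up of a molecule, while their comparison between tumour types does not depend on the lengths. The ratio of Col1a1 to Col1a2 was 2.86 ± 0.645 in MSI tumours (2.18 to 4.26) and 6.85 ± 2.57 in CIN tumours (3.81 to 12.1, SD, n = 8 each). The ranges met only between MSI tumour CIN free 1 (4.26) and CIN tumour CIN micronuclei 2 (3.81). Col1a1 to Col3a1 was 0.307 ± 0.195 in MSI (0.136 to 0.705) and 0.941 ± 0.176 in CIN tumours (0.736 to 1.19), without overlap. Col6a3 to Col6a1 was 0.253 ± 0.0456 in MSI (0.199 to 0.313) and 0.821 ± 0.186 in CIN tumours (0.601 to 1.19), again without overlap. Col6a1 to Col6a2 also kept the groups apart, at 3.13 to 3.85 in MSI and a narrow 2.64 to 2.84 in CIN tumours. Col4a1 to Col4a2 lay near 1 in both, at 1.06 ± 0.0828 and 0.906 ± 0.0802, and Col5a1 to Col5a2 overlapped at 2.87 ± 1.08 and 3.35 ± 0.577.

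**Figure D5:**
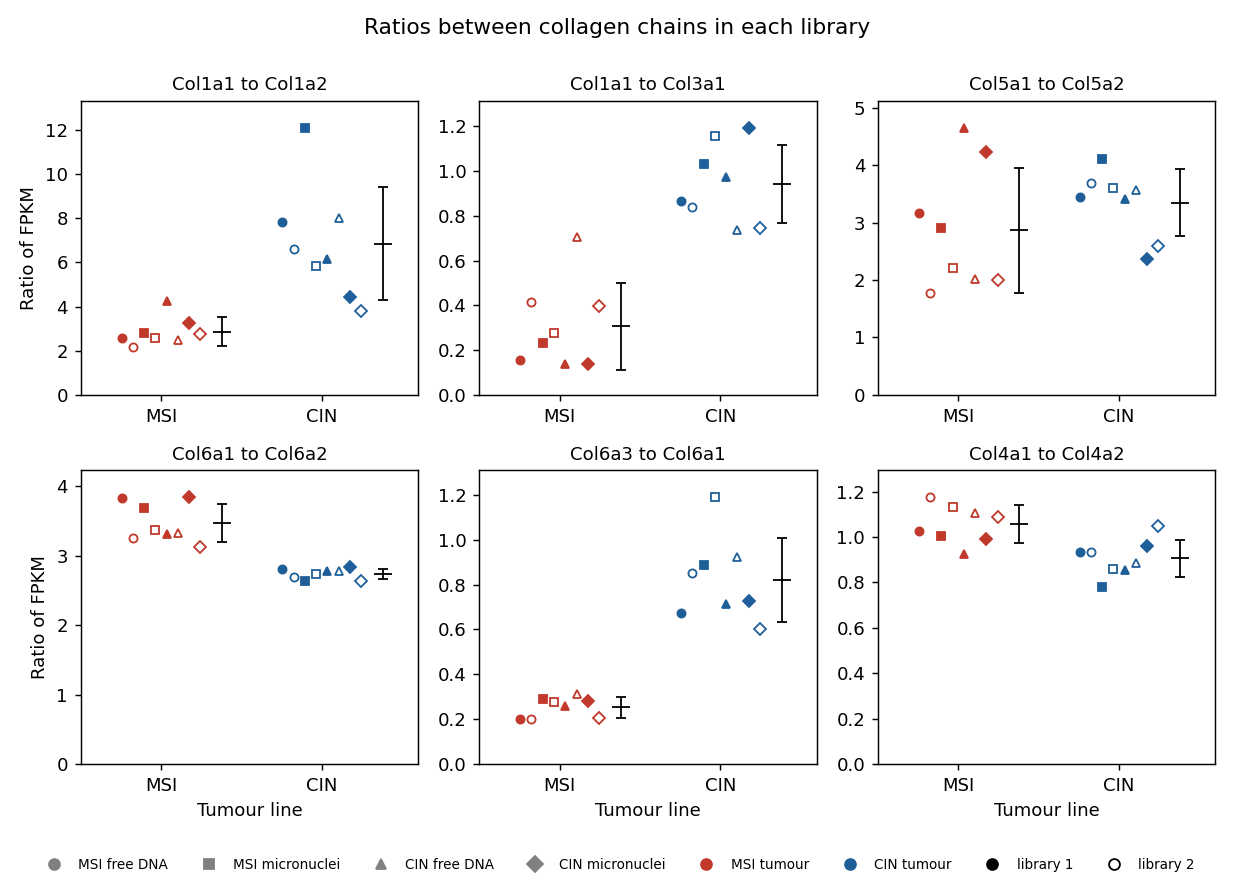
Ratio of the FPKM of chain pairs in each library (y axis) by tumour line (x axis), with the symbols for DNA and library number and the mean ± SD of 8 libraries as a bar. The ratio of Col6a3 to Col6a1 ends at 0.313 in MSI and begins at 0.601 in CIN tumours, and the ratio of Col4a1 to Col4a2 overlaps.

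The test that asks whether any of the 8 group means differ called 3 chains, Col1a1, Col5a2 and Col6a3 (edgeR with Benjamini-Hochberg adjusted p = 0.0285, 0.0459 and 0.0472), against 0.208% of all genes. All 3 are among those that differed between tumour types. The count was 0 when any 1 of the 8 CIN tumour libraries, either MSI tumour MSI free library or MSI tumour MSI micronuclei 1 was left out. It was 1 (Col1a1) without MSI tumour MSI micronuclei 2 or MSI tumour CIN micronuclei 2, and 2 or 3 without each of the other 3 libraries.

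The source and the form of the DNA given to the dendritic cells moved no chain past the threshold. For the source, MSI against CIN DNA, edgeR called 0 of 37 chains and 0% of all genes, DESeq2 also called 0, and 1 chain was under an unadjusted 0.05 by each (1.11% of all genes by edgeR). That chain by edgeR was Col8a2, a vessel and cornea chain, at 1.16 ± 0.428 CPM with MSI DNA and 2.67 ± 1.62 CPM with CIN DNA (SD of 8 libraries per DNA source, log2 fold change -1.11 ± 0.35 SE, edgeR adjusted p 1.00 after Benjamini-Hochberg). For the form, free DNA against micronuclei, 0 chains and 0% of all genes passed by edgeR, 0 chains by DESeq2, and 0 were under an unadjusted 0.05 by either (0.788% of all genes by edgeR). Col1a1 stood at 639 ± 316 CPM after free DNA and 638 ± 348 CPM after micronuclei, and at 619.6 ± 284 CPM with MSI DNA and 657 ± 373 CPM with CIN DNA. Col6a3 stood at 940.0 ± 750.4 CPM after free DNA and 929 ± 680.1 CPM after micronuclei. These groups overlap over nearly their whole range, since each holds both tumour types. On the log2 scale the interval of 2 standard errors for Col1a1 was -0.22 to 0.23 for the source and -0.20 to 0.25 for the form, and for Col6a3 -0.36 to 0.50 and -0.51 to 0.34.

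Within each tumour type the result was the same. The source effect in MSI tumours, the source effect in CIN tumours, the form effect in each, and the interactions of tumour with source, tumour with form and source with form each had 0 chains and 0% of all genes past the threshold by edgeR. DESeq2 called 0 chains in each as well. At an unadjusted p under 0.05 edgeR gave 1 chain for the source in MSI tumours (Col5a2, log2 difference 0.53, SE 0.12), 1 for the source in CIN tumours (Col8a2, -1.67 ± 0.51) and 5 for tumour with source (Col1a2, Col4a1, Col5a2, Col15a1 and Col24a1), against 0.804, 1.68 and 1.52% of all genes. It gave 0 for the form in MSI tumours (0.671% of all genes), the form in CIN tumours (0.815%), tumour with form (0.847%) and source with form (1.89%). For Col1a2 the interaction, which is the source effect in MSI tumours minus that in CIN tumours divided by 2, was 0.59 with an interval of 2 standard errors of 0.14 to 1.03.

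The group order, read from the values after they were seen and therefore only described, set CIN tumour CIN micronuclei apart. Skeletal muscle markers summed to 9.14 and 10.3 CPM in its libraries. They summed to 136 to 277 CPM in the muscle-rich CIN libraries (both MSI micronuclei libraries, MSI free 2 and CIN free 2). CIN tumour CIN micronuclei 2 had the highest colon epithelium sum of the CIN libraries (7877 CPM). The part of these tissues in the order was not tested. In CIN tumour CIN micronuclei both libraries lay above the other 6 CIN libraries in 10 of 37 chains, among them Col1a1 (1197 and 1039.5 CPM), Col1a2 (509.7 and 516 CPM), Col5a2 (151 and 160.1 CPM) and Col12a1 (65.3 and 45.4 CPM). Over all genes tested 6.45% had that order. The other 6 were Col4a4, Col4a6, Col8a2, Col23a1, Col24a1 and Col28a1, each at 5.36 CPM or less in these libraries. In MSI tumours MSI micronuclei had the same order in 3 chains (Col4a2, Col5a2 and Col24a1), against 1.13% of all genes, and in CIN tumours MSI free in 1 (Col5a3), against 1.16%. The other 5 groups had it in 0 chains, against 0.772% of all genes for MSI tumour MSI free, 1.19% for MSI tumour CIN free, 1.57% for MSI tumour CIN micronuclei, 5.03% for CIN tumour MSI micronuclei and 1.13% for CIN tumour CIN free. By a looser rule, on means alone, CIN tumour CIN micronuclei was the lowest of the CIN tumour groups in other chains. These were Col6a3 (1144 CPM), Col6a1 (640 CPM), Col6a2 (447 CPM), Col5a1 (342 CPM) and Col16a1 (287 CPM). Col18a1 (144 CPM), Col7a1 (108 CPM), Col8a1 (105 CPM) and Col17a1 (1.81 CPM) had the same order. As 1 CIN tumour group has the lowest mean in every chain, this list does not by itself set the group apart. How many of all genes had this order of means was not counted.

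Within MSI tumours the library number separated many genes, and collagen chains no more often than genes at large. All second libraries were below all first libraries in 5 of 37 chains (Col6a1, Col7a1, Col8a1, Col11a2 and Col16a1), a background of 19.5%, and above them in 5 (Col4a3, Col4a6, Col9a2, Col12a1 and Col20a1), a background of 21.3%. Some chains kept the tumour types apart in the first or in the second libraries alone, with overlap in the others. In the first, Col3a1, Col4a1 and Col15a1 were higher and Col5a2 lower in MSI tumours. In the second, Col9a2 was higher, while Col6a1, Col6a2, Col7a1, Col8a1, Col11a2, Col16a1 and Col17a1 were lower. How many of all genes had these orders was not counted. No source used here says what the library number stands for.

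Genes that make, bind or surround collagen were counted in 4 lists, to be read against 3.48% of all genes lower and 2.32% higher in MSI tumours. Of 26 genes for collagen folding and processing 3 fell in MSI tumours and 0 rose. These were the prolyl 4-hydroxylase subunit P4ha2 (19.7 ± 6.83 against 52.3 ± 11.0 CPM, log2 difference -1.40, SE 0.21), the procollagen peptidase enhancer Pcolce2 (13.4 ± 4.02 against 33.6 ± 5.57 CPM, -1.33 ± 0.20) and the collagen galactosyltransferase Colgalt1 (130.2 ± 21.5 against 194 ± 20.3 CPM, -0.57 ± 0.12). Of 12 receptors 1 fell, Itgb1, the β1 subunit of the collagen-binding integrins (562 ± 62.3 against 792 ± 101 CPM, -0.49 ± 0.10). The tests were those of the chains, with edgeR and Benjamini-Hochberg adjusted p between 0.00424 and 0.0193 for these 4 genes.

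Fibril-binding proteoglycans went both ways. Of 10 tested, biglycan (Bgn, 784 ± 215 against 1735 ± 246 CPM) and prolargin (Prelp, 65.1 ± 15.3 against 137 ± 18.9 CPM) fell, while osteomodulin (Omd, 6.57 ± 3.20 against 0.449 ± 0.360 CPM) and asporin (Aspn, 33.0 ± 5.16 against 16.4 ± 9.08 CPM) rose in MSI tumours. Their log2 fold changes were -1.15 ± 0.17, -1.08 ± 0.16, 4.38 ± 0.45 and 1.12 ± 0.22 (SE). Of 16 laminins and other basement membrane proteins 2 fell and 0 rose: perlecan (Hspg2, 524 ± 190.1 against 1094 ± 286 CPM) and the laminin γ1 chain (Lamc1, 253 ± 87.5 against 519 ± 122 CPM). Their log2 fold changes were -1.04 (SE 0.25) and -1.02 (SE 0.24). No gene of the 4 lists passed for DNA source or form by edgeR.

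The summed level of 14 fibroblast markers was 546, 706 and 844 CPM in MSI tumours and 1209, 1486 and 1760.5 CPM in CIN tumours (lowest, median, highest), without overlap. The gap was carried by Fbln2, an elastic fibre protein, at 244 ± 109.9 against 1006 ± 229.7 CPM. Without Fbln2 the other 13 summed to 395 to 554 CPM in MSI tumours and to 416 to 731 CPM in CIN tumours, which overlap. By edgeR 2 of the 14 fell in MSI tumours, Fbln2 and the receptor Pdgfrb (log2 fold change -2.04 ± 0.31 and -1.06 ± 0.23 SE), 0 rose, and 8 had positive values (median log2 fold change of the list 0.20). This and the counts that follow are to be read against 3.48% of all genes lower and 2.32% higher in MSI tumours. Of 6 pericyte markers 1 fell, Cspg4 (-1.52 ± 0.25), while the other 5 had positive values that did not pass (list median 0.57). The pericyte sum was 149 to 233 CPM in MSI tumours, against 272 to 401 CPM in CIN tumours, and without Cspg4 it was 55.9 to 135 CPM and 35.9 to 121 CPM, with the higher mean in MSI tumours (87.1 ± 28.0 against 63.8 ± 28.3 CPM). Of 5 mesothelial markers 1 rose, Msln, and the other 4 had negative values that did not pass (list median -1.07). No marker of the lists for smooth muscle (12 genes), skeletal muscle (12), colon epithelium (15), adipocytes (4 tested of 6) or enteric glia (6) passed between tumour types. The part of any of these cells in the collagen result was not tested, and RNA from the tumour cells themselves cannot be told apart from that of host cells in these libraries.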

How the data were processed

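Gene counts and FPKM values (counts divided by gene length and by one total per library) of 16 libraries were used as deposited by the authors. Per the submitters' processing notes, reads were handled with fastp, aligned with HISAT2 2.0.5 and counted with featureCounts 1.5.0-p3. The notes name GRCm39, while the coordinates of all 44 chains in the deposited count table equal those of GENCODE M21 on GRCm38, the build printed here. No source used here gives the strand setting. The table held 4 columns matched to no sample, which were not used.

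Libraries were grouped by the labels (tumour, DNA source, DNA form). Genes were filtered by filterByExpr, scaled by TMM and tested in R 4.3.3 with edgeR 4.0.16 (robust quasi-likelihood F test, 8 group means, contrasts of their averages, interactions divided by 2), with Benjamini-Hochberg adjustment over all 18777 genes and a threshold of 0.05. Each SE of a log2 fold change was derived as its absolute value over the square root of F, so the SE and its intervals are approximate. Total counts were 11561955 to 17937501 per library, and the common biological coefficient of variation was 0.43. Counting was not repeated from reads, and replicate libraries differed beyond sampling noise (chi-square per degree of freedom 19.4 to 214). FPKM served for comparing genes. The fit was tested on simulated data with a lower coefficient of variation than these data. That test therefore does not show how many real differences the fit would find here. Alternatives were DESeq2 1.42.0 (test and size factors), no filter, replicate blocks, a main effects model, marker covariates and left-out libraries.

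Every chain past the threshold was named with its value in each group, along with 20 chains named whatever their result, the 3 other chains of largest tumour effect and up to 4 passing genes per partner list. Other chains were named after their values were seen. Members and lists were chosen with earlier results of these data known.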

Additional observations from a re-analysis of the deposited data

Results flagged for a closer look

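In 3 of 74 sets of 8 libraries (37 chains in each tumour type), 1 library lay far from the other 7, and chance alone marks about 1 in 20 such sets. All 3 were in CIN tumours given cells exposed to CIN micronuclei. Col6a4, an alternative type VI chain, was at 12.9 CPM in CIN tumour CIN micronuclei 2, against 6.29 CPM in the next highest CIN library. Col11a1, a cartilage fibril chain, was at 7.78 CPM in CIN tumour CIN micronuclei 1, against 2.96 CPM in the next. Col27a1 was at 26.6 CPM in CIN tumour CIN micronuclei 2, against 22.7 CPM in the next.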

How the results depend on the processing

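Col1a1, Col5a2, Col27a1, Col6a3 and Col18a1 passed between tumour types under every alternative run. The count of 7 chains was 8 with DESeq2 size factors, without a filter and with main effects, 9 by DESeq2, 5 with main effects and no muscle-rich library, and 5 to 9 with 1 library left out. It was 15 with a smooth muscle covariate (1 of them higher in MSI tumours, Col4a5), 18 with colon epithelium and skeletal muscle covariates (3 higher: Col4a1, Col4a5 and Col15a1) and 11 without the 4 colon-rich MSI libraries. For the 8-group test the count of 3 was 5 without a filter, 7 with the smooth muscle covariate, 6 with the other covariates, 6 by DESeq2 and 0 to 3 with 1 library left out. Counts for DNA source, form and interactions were 0 throughout. Leaving out a library leaves a group with 1 sample, assumed to vary like the others.

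Library numbers do not pair the samples by the labels, and deviations of same-numbered libraries correlated from -0.51 to 0.77 over 28 pairs of groups. Within MSI tumours all pairs correlated, from 0.35 to 0.77, and within CIN tumours they ran from -0.30 to 0.35. A replicate block gave 11 chains between tumour types (9 lower; 2 higher, Col4a1 and Col15a1, with edgeR adjusted p of 0.047 and 0.0397) and 2 in the 8-group test. A replicate block within each tumour type gave 16 (14 lower, the same 2 higher) and 5.

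The log2 tumour effect changed sign in chains that did not pass. Without the colon-rich libraries it was -0.72 for Col4a3, -1.07 for Col4a6, 0.047 for Col5a3, -2.73 for Col9a2, 0.093 for Col11a2, -0.57 for Col22a1 and -0.47 for Col23a1. Col6a4 was at -0.0049 with main effects, -0.50 without the muscle-rich libraries, -0.017 with the smooth muscle covariate and -0.011 with the other covariates. With these covariates Col9a2 was at -0.36 and -0.41. Col23a1 was at -0.27 without the muscle-rich libraries and -0.43 with the colon epithelium and skeletal muscle covariates, and Col9a3 at 0.0013 with the smooth muscle covariate. With 1 library left out the values ran from -0.028 to 1.19 (Col4a3), -0.40 to 0.061 (Col4a4), -0.11 to 0.52 (Col6a4), -0.17 to 2.38 (Col9a2), -1.24 to 0.57 (Col22a1), -0.34 to 0.85 (Col23a1) and -0.44 to 1.37 (Col24a1). The cause was not tested.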
